A study of Mus musculus with 6 samples.

Results

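The genes described here code for the proteins of the cytosolic ribosome of the mouse. They were taken from the count table by name: protein-coding genes whose symbol is Rpl or Rps followed by a digit, together with Rpsa, Rplp0, Rplp1 and Rplp2, leaving out the Rps6k kinases and Rps19bp1. The rule took 93 of the 54532 genes in the table. Of these, 33 code for proteins of the small (40S) subunit or close copies of them, 52 for the large (60S) subunit, and 8 carry a pseudogene symbol (ending in -ps and a number) although the table labels them protein-coding. Their levels passed the filter on low counts for 88 genes. The 5 others were Rpl3l, Rpl10l, Rpl13a-ps1, Rpl9-ps1 and Rpl36-ps4, and the table held 3 of the 93 genes at 0 counts in every library.

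Gene expression was measured by RNA sequencing of total RNA from bone marrow cells selected with CD8 microbeads. There were 3 pools from mice with bone marrow failure treated with ruxolitinib, which inhibits the kinases JAK1 and JAK2 (pools 1 to 3), and 3 control pools from untreated mice with the same disease (pools 4 to 6). All mice were female CByB6F1 hybrids aged 2 to 5 months, and each pool joined cells of 2 to 3 mice of its group, so differences between single mice are averaged. The labels used here give no dose, treatment time or way in which marrow failure was induced, and no group of healthy mice was analysed here. The comparison asks how gene expression in marrow CD8 cells of mice given the inhibitor differs from that of untreated mice.

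A ribosome joins a small subunit, which reads the mRNA, to a large subunit, which forms the peptide bonds, and each holds ribosomal RNA and a fixed set of proteins. Cells that grow and divide, such as activated T cells and early red cell precursors, make ribosomes at a high rate, and mRNAs for ribosomal proteins are among the most abundant in most cells. Many of these mRNAs start with a terminal oligopyrimidine (TOP) tract, a C followed by further C and T bases, through which the kinase mTOR and the RNA-binding protein LARP1 control their translation and stability. In humans, loss of one copy of any of several ribosomal protein genes causes Diamond-Blackfan anaemia, an inherited failure of red cell production.

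The starts of these genes showed the features known for the family. In a RefSeq table of promoters (GRCm38.p6), 65 of the 93 genes were listed by symbol. A run of C and at least 6 further C or T bases on the coding strand, beginning within 30 bases of the annotated start, stood in 36 of the 65 (55.4%), against 26.5% of the 32851 promoters in that table. Under a stricter reading, with a C exactly at the annotated start and at least 4 pyrimidines after it, it stood in 13 of the 65, against 2.505% of the table. CCGGAAG, a core sequence bound by ETS factors such as GABP, was found on either strand in 38.5% of the 65 and 8.86% of all promoters between 250 bases before and 50 bases after the start. ATGGCGG, a core sequence bound by YY1, was found there in 15.4% of the 65 and 4.06% of all. These are matches of letters, and the motifs were searched without regard to overlap with each other. The windows below run from 70 bases before the annotated start through the first 30 bases from it, 5′ to 3′ on the coding strand, with the pyrimidine run in capitals. They are shown because the run was present in genes with large falls (Rps18, Rpl18, Rps27), in the stalk gene Rplp2, and in genes whose smaller estimates did not pass the test (Rpl28, Rpl4). Other genes with large falls, such as Rps13 and Rpsa, lacked the run. Relative to the annotated start its first base lay at -2 (Rps18), 1 (Rpl18), -2 (Rps27), -4 (Rplp2), -2 (Rpl28) and -17 (Rpl4). In Rpl4 the whole run lay before the start. Whether these runs act as TOP tracts was not tested. Values of the genes shown are given further on.
Rps18, chr17:33955636-33955735, minus strand: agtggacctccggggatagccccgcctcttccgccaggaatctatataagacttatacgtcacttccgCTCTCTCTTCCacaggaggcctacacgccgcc
Rpl18, chr7:45718001-45718100, plus strand: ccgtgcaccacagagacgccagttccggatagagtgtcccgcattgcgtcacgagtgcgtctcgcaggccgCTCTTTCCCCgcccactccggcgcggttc
Rps27, chr3:90213619-90213718, minus strand: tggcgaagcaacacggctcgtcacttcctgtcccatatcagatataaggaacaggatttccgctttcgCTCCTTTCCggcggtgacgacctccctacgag
Rplp2, chr7:141447581-141447680, plus strand: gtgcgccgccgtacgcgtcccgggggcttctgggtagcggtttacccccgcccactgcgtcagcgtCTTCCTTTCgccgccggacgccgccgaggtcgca
Rpl28, chr7:4792895-4792994, plus strand: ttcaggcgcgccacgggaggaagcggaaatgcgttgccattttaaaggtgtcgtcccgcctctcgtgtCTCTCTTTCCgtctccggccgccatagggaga
Rpl4, chr9:64173317-64173416, plus strand: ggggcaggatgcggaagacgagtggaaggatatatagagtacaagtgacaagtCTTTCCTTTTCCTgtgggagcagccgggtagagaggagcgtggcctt

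Libraries held 13829808 to 17708196 counts, and 13480 genes passed the filter. Levels are given as CPM, a gene's count per 1000000 of the library's total multiplied by edgeR's TMM factor. The libraries differed in more than the treatment. Genes of the haemoglobins took 22.6%, 17.5% and 13.4% of the counts in ruxolitinib pools 1, 2 and 3, against 0.189%, 0.178% and 0.258% in control pools 4, 5 and 6. The 17 genes used as markers of CD8 T cells summed to 1879, 2382 and 5369 CPM in the ruxolitinib pools, against 12877, 12846 and 10548 CPM in the control pools, and 16 of them were called lower and 0 higher. None of the 17 was at 0 in a whole group, so markers of the labelled cell type were detected in both groups. Of 14 erythroid markers, 13 were in the table and all 13 were called higher, with sums of 125582 to 246116 CPM in ruxolitinib pools and 1879 to 2704 CPM in control pools. Marker lists of macrophages (12 of 12 higher), B cells (10 of 10), granulocytes (8 of 10), stromal cells (6 of 7) and dendritic cells (5 of 7) were also higher in the ruxolitinib pools, and markers at 0 in all control pools included Ms4a1, Pax5, Siglech and Flt3. These calls used TMM scaling, with which 25.3% of all 13480 genes tested were called lower and 29.9% higher. Summed levels in ruxolitinib and control pools were 8625 to 14272 and 1128 to 1525 CPM for macrophage markers, and 1070 to 1656 and 210 to 271 CPM for B cell markers. They were 9033 to 21129 and 1575 to 6115 CPM for granulocyte markers, and 2556 to 2843 and 1166 to 1315 CPM for dendritic cell markers. They were 123 to 168 and 33.0 to 40.1 CPM for stromal markers, and 220 to 379 and 63.6 to 103 CPM for natural killer markers. Of the 5 natural killer markers 2 passed the filter, Tyrobp being higher (log2 fold change 2.58) and Klre1 lower (-3.42). Their sum thus does not stand for a shared direction of that list. In pooled marrow cells of this kind, fewer cells of a type and less RNA per cell cannot be told apart.

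Control pool 6 stood apart from the other control pools in its ribosomal protein profile. Over 78 of the genes with a mean of at least 100 CPM over all libraries, the log2 ratio of pools 4 and 5 had an SD of 0.15, while it was 0.86 between pools 4 and 6 and 0.81 between pools 5 and 6. Over 1632 other genes at that level the SDs were 0.30, 0.66 and 0.61. Within the ruxolitinib group the SDs over the 78 genes were 0.26 to 0.32. Of the 81 genes with at least 100 CPM on average in the controls, pool 6 was more than 1.5-fold above the mean of pools 4 and 5 for 16, more than 1.5-fold below it for 16, and within that range for 49. Pools 4 and 5 were more than 1.5-fold apart for 2 of the 81. The extremes were Rps21, 2.92-fold higher in pool 6, and Rpl23a, 9.26-fold lower there. The median log2 ratio of pool 6 to the mean of pools 4 and 5 was -0.01, so the genes spread in both directions without a shift of the whole set. Across the 81 genes this ratio had a Pearson r of 0.35 (Spearman rho 0.45) with the mean control level, which includes pool 6 itself, -0.11 with mRNA length and -0.06 with its GC content, a description over genes that share the same 3 libraries. Results below are therefore given with and without pool 6 where it matters.

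**Figure D1:**
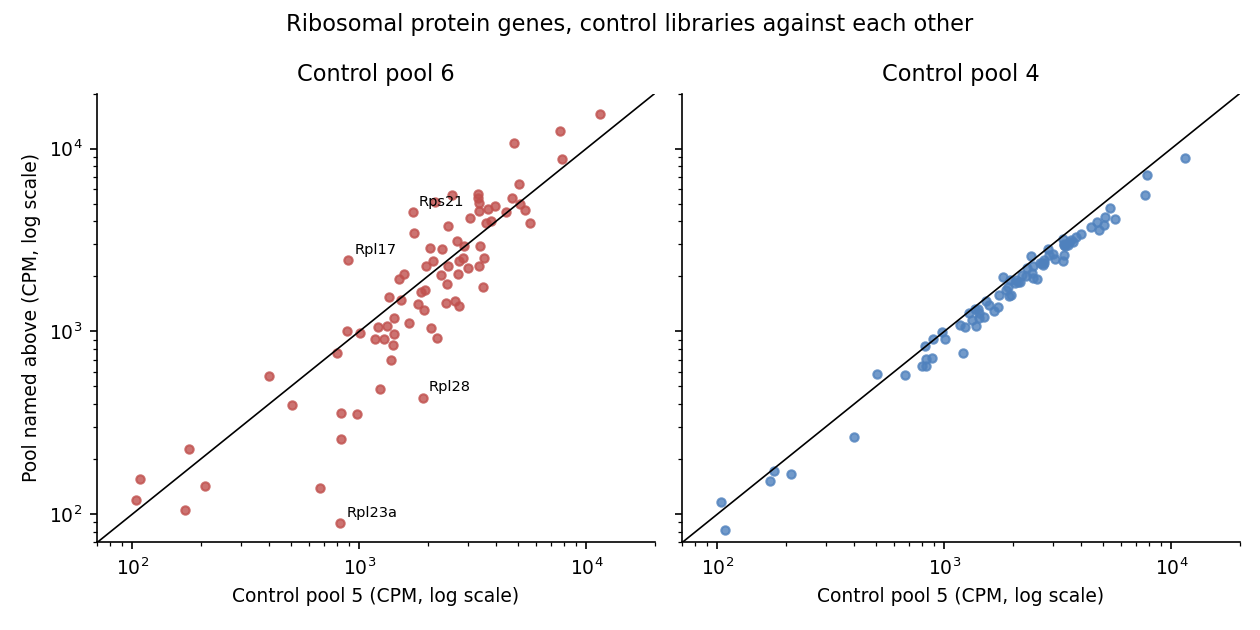
Levels (CPM, log scales) of the ribosomal protein genes with at least 100 CPM on average in the controls, each point a gene, in control pool 6 (left) and control pool 4 (right) against control pool 5; the line marks equal levels. Pool 4 follows pool 5 closely, whereas pool 6 departs by more than 1.5-fold from the mean of pools 4 and 5 for 16 genes above and 16 below, with Rpl23a 9.26-fold lower.

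Ribosomal protein genes took a smaller share of the counts in the ruxolitinib pools. They held 3.84%, 5.17% and 6.59% of all counts in ruxolitinib pools 1, 2 and 3, against 17.5%, 19.5% and 21.3% in control pools 4, 5 and 6. The groups did not overlap, and the means were 5.20% ± 1.37 in ruxolitinib pools and 19.4% ± 1.87 in control pools (SD, n = 3 each). An exact two-sided permutation test gave p = 0.1, the smallest that 3 pools against 3 can give. With the haemoglobin genes left out of the total, the shares were 4.97%, 6.27% and 7.61% in ruxolitinib pools and 17.6%, 19.6% and 21.3% in control pools, and the difference between the means was -13.2 percentage points, against -14.2 with these genes in the total. Mitochondrially encoded genes, which code for no ribosomal protein, held 2.53%, 1.98% and 2.25% of counts in ruxolitinib pools and 0.884%, 0.793% and 0.777% in control pools, higher in every ruxolitinib pool.

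**Figure D2:**
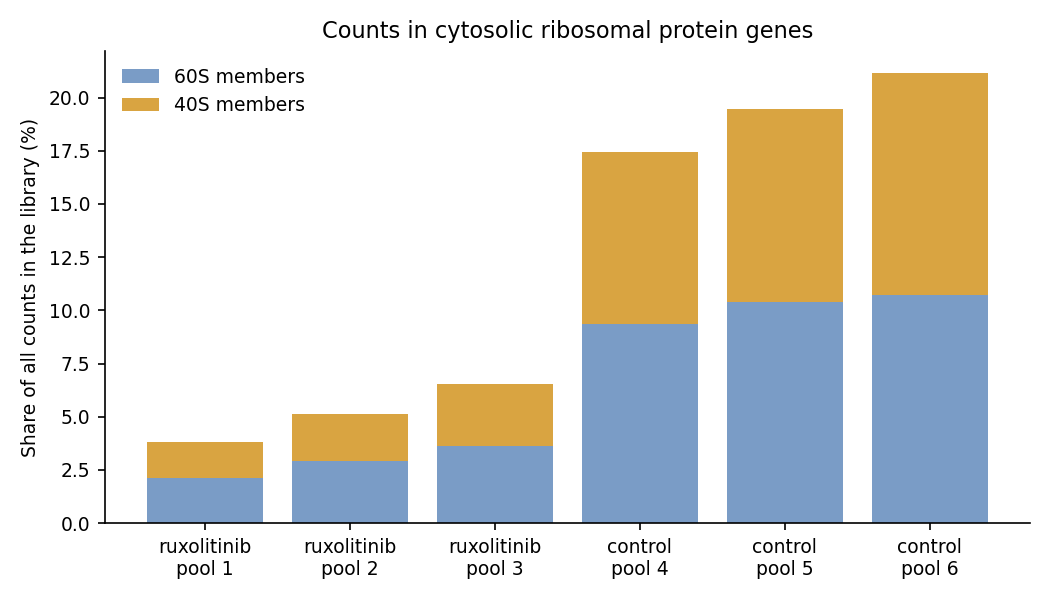
Share of all counts (%) in the 60S (lower part of each bar) and 40S (upper part) ribosomal protein genes without a pseudogene symbol, one bar per library. All members together held 3.84% to 6.59% of counts in the 3 ruxolitinib pools and 17.5% to 21.3% in the 3 control pools.

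Both subunits took part in this difference. The 40S genes held 1.68%, 2.23% and 2.90% of counts in ruxolitinib pools, against 8.06%, 9.06% and 10.4% in control pools. The 60S genes held 2.13%, 2.91% and 3.64% in ruxolitinib pools, against 9.38%, 10.4% and 10.7% in control pools. Within the family, the 40S genes made up 44.2%, 43.4% and 44.3% of the counts in ruxolitinib pools and 46.2%, 46.6% and 49.4% in control pools (exact permutation p = 0.1). The difference between the means was -3.43 percentage points, and pool 6 was the control farthest from the ruxolitinib pools. Among the 100 most counted genes of a library there were 13, 15 and 31 ribosomal protein genes in ruxolitinib pools 1, 2 and 3, against 52, 55 and 53 in control pools 4, 5 and 6. Rpsa was the 43rd, 42nd and 23rd most counted gene in the ruxolitinib pools and ranked 4, 2 and 2 in the control pools. The most counted gene was Hba-a1 in each ruxolitinib pool, and Eef1a1, Actb or Tmsb4x in the control pools.

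Gene by gene, all 88 tested genes had a log2 fold change below 0 (ruxolitinib over control, TMM scaling), and 82 were called lower and 0 higher by edgeR's quasi-likelihood test at a Benjamini-Hochberg adjusted p under 0.05, whereas with libraries scaled to the CD8 T markers 0 were called lower and 3 higher. Of all 13480 genes tested with TMM scaling, 25.3% were called lower and 29.9% higher. No gene of the family was higher at an unadjusted p under 0.05. The median log2 fold change was -1.83, which leaves 28.2% of the control level, while the median over all genes tested was 0.03. The quartiles of the family were -2.21 and -1.52, and the extremes -2.99 (Rps21) and -0.68 (Rpl4). The change was below -1 on the log2 scale for 81 genes and below -2 for 34. In 83 of the 88 every ruxolitinib pool lay below every control pool, against 30.3% of all genes tested. The 5 genes whose groups overlapped were Rpl28, Rpl6, Rpl23a, Rpl23 and Rpl4, named here after their values were seen, and in each of them control pool 6 was the control with the low value.

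Without control pool 6, 86 of the 88 genes were called lower, against 27.4% of the 13959 genes tested then, and the median was -1.86. Rpl28, Rpl23a, Rpl23 and Rpl4 were called lower in that fit, and Rpl36al and Rps10, both counted at a few CPM or less, were not. With TMM scaling and all libraries, 32 of 33 genes of the 40S subunit were called lower (median -1.85) and 45 of 50 tested genes of the 60S subunit (median -1.85), and 0 of either when scaled to CD8 T markers. Of the 8 genes with a pseudogene symbol, 5 were tested and all 5 were called lower. Leaving them out gives 77 of 83 genes and a median of -1.85.

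**Figure D3:**
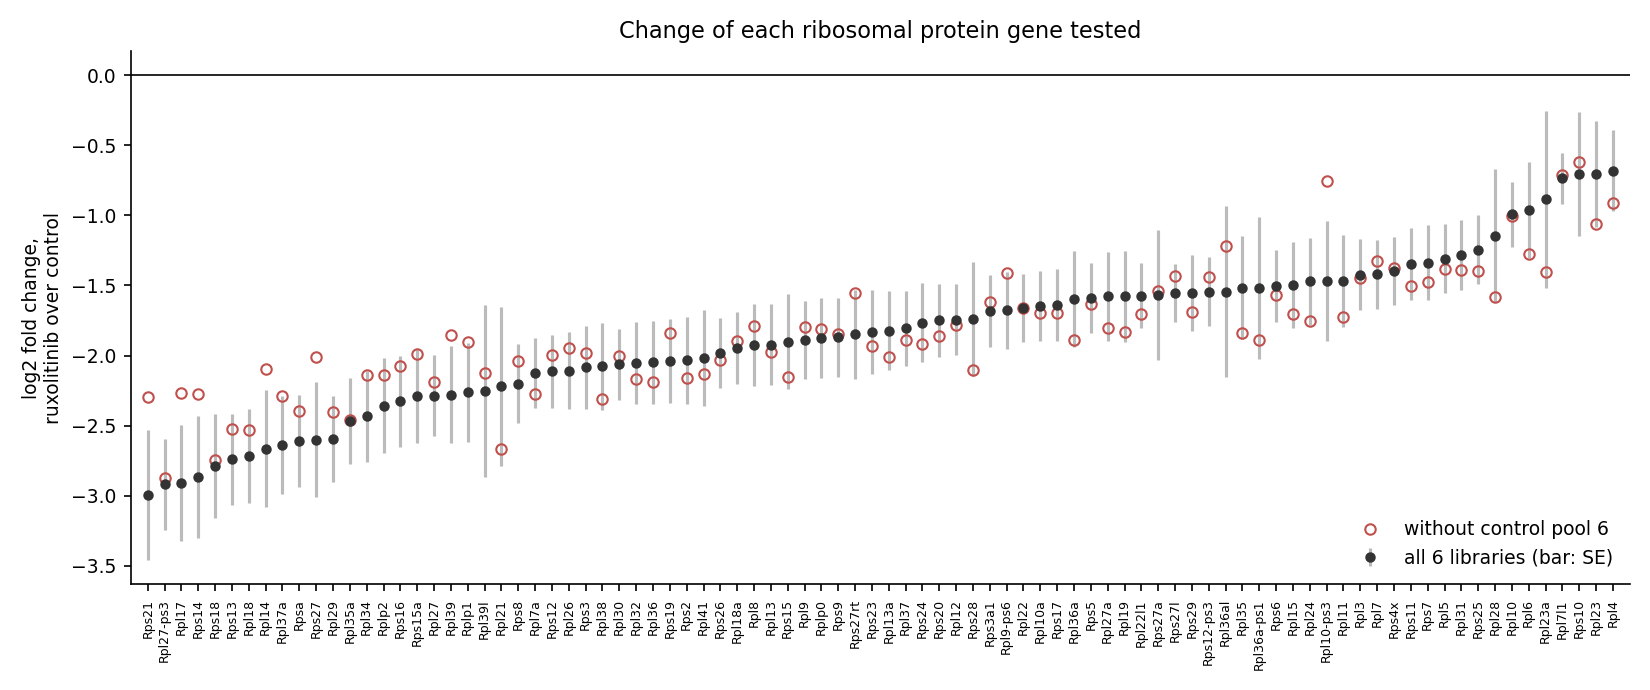
log2 fold change (ruxolitinib over control, TMM scaling) of the 88 tested ribosomal protein genes, ranked; filled points and bars give the estimate and its SE from all 6 libraries, open circles the estimate without control pool 6. All filled points lie below 0, between -2.99 (Rps21) and -0.68 (Rpl4), and the open circles move up at the left end and down at the right end; scaled to CD8 T markers the median would be 0.06.

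The fall depended on what the libraries were scaled to. When the geometric mean of the 17 CD8 T markers set the scale of a library, it moved the median log2 fold change of all genes tested by 1.96, to 2.00, and that of the ribosomal protein genes to 0.06. Relative to the median of all genes, the family stood at -1.94 under this scaling and -1.86 under TMM. In that fit 0 genes of the family were called lower by edgeR (1 at an unadjusted p under 0.05) and 3 were called higher, Rpl23 (1.28), Rpl4 (1.27) and Rpl7l1 (1.21), against 0.482% and 70.4% of all genes tested. Its errors were larger, with a median SE of 0.57 in the family, against 0.30 under TMM. Leaving out ruxolitinib pool 3 raised the number called higher to 20, with 1 called lower, and leaving out each pool in turn gave medians between -0.20 and 0.32.

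Set against the T cell markers of the same library, the family's levels in the groups overlapped. Its summed level was 21.1, 22.8 and 10.8 CPM per CPM of the summed CD8 T markers in ruxolitinib pools 1, 2 and 3, against 13.3, 15.6 and 20.9 in control pools 4, 5 and 6. The lowest ratio was that of ruxolitinib pool 3, which had the highest marker level of its group. Among the ruxolitinib pools the summed ribosomal protein level was 39704, 54265 and 58255 CPM in pools 1, 2 and 3, while the summed erythroid level was 246116, 199405 and 125582 CPM. The levels of other cell types moved with the groups as given above, and their part in the fall of the ribosomal protein genes was not tested.

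**Figure D4:**
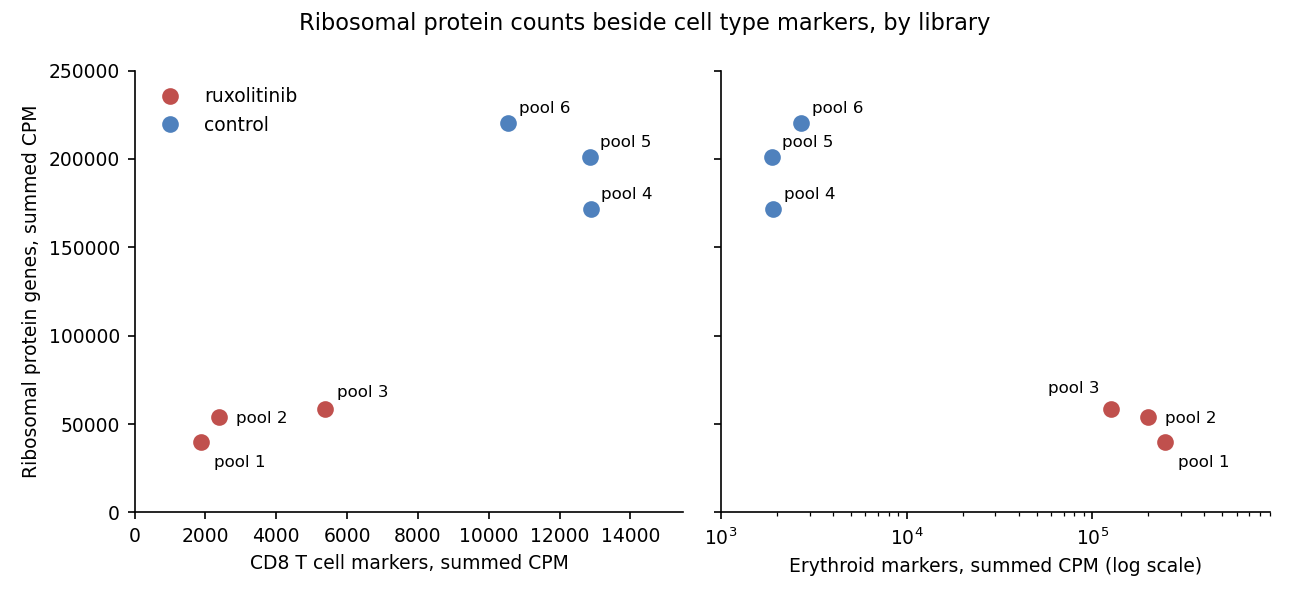
Summed CPM of the ribosomal protein genes (vertical axis) against the summed CPM of 17 CD8 T markers (left) and 13 erythroid markers (right, log scale), one point per library. The ruxolitinib pools lie at 39704 to 58255 CPM with 1879 to 5369 CPM of CD8 T markers and 125582 to 246116 CPM of erythroid markers, and the control pools at 171597 to 220174 CPM with 10548 to 12877 and 1879 to 2704 CPM.

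Per kilobase of mRNA, the most abundant genes of the family, averaged over both groups, were Rplp1 (10349 CPM per kb), Rpl41 (6506), Rps14 (6092), Rps27 (5125), Rplp2 (4981) and Rpsa (4334). The order differed between the groups, and this mean follows the higher levels of the controls. In ruxolitinib pools the first 6 were Rplp1 (3568 CPM per kb), Rpl41 (2576), Rps9 (1732), Rpl13 (1651), Rplp2 (1626) and Rplp0 (1590), and in control pools Rplp1 (17130 CPM per kb), Rps14 (10714), Rpl41 (10436), Rps27 (8799), Rplp2 (8336) and Rps18 (7530), so Rpsa was among the first 6 of neither group. With the deposited gene length in place of the mRNA length, 3 of the 6 from both groups (Rplp1, Rps14 and Rpl41) were again among the first 6. Rplp0, Rplp1 and Rplp2 form the stalk of the large subunit, which recruits the GTPase factors of translation. Rplp1 (chromosome 9, 61913284 to 61914542, minus strand, mm10) had 1486, 2012 and 1843 CPM in ruxolitinib pools, against 5568, 7654 and 12421 CPM in control pools. Its log2 fold change was -2.26 ± 0.35 (SE), with an adjusted p of 0.000611 in edgeR. The groups did not overlap, and control pool 6 was the highest. Rplp0 (chromosome 5, 115559467 to 115563727, plus strand) had 1705, 2155 and 2617 CPM in ruxolitinib pools, against 7178, 7831 and 8768 CPM in control pools, a log2 fold change of -1.88 ± 0.28. Rplp2 had 454, 807 and 792 CPM in ruxolitinib pools, against 2608, 3362 and 4558 CPM in control pools, a log2 fold change of -2.36 ± 0.34. The groups of both were separate, as for Rplp1.

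Rpsa (chromosome 9, 120127689 to 120132369, plus strand), a 40S protein also known as a laminin receptor, had the most counts of the family summed over all libraries. In each ruxolitinib pool Rplp0 had the most. Rpsa was at 1556, 1938 and 2352 CPM in ruxolitinib pools, against 8847, 11531 and 15361 CPM in control pools. Its log2 fold change was -2.61 ± 0.33, and -2.40 without control pool 6. Together with Rplp1, Rplp0, Rps14 and Rpl13, the 5 genes with the most counts, it made up 15.9% ± 0.315 of the family's counts in ruxolitinib pools and 19.8% ± 3.29 in control pools (SD, n = 3 each), with the highest share in control pool 6 (23.6%). These 5 were chosen on counts summed over all libraries, most of which came from the control pools, so the choice itself favours a higher share there. Rpl41, one of the smallest proteins of the ribosome, had 701, 1524 and 1151 CPM in ruxolitinib pools, against 4124, 5641 and 3917 CPM in control pools. Here pool 6 was the lowest control, and the log2 fold change was -2.02 ± 0.34.

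With all libraries the largest fall among 40S genes was that of Rps21 (chromosome 2, 180257377 to 180258445, plus strand). It had 244, 383 and 321 CPM in ruxolitinib pools, against 1354, 1720 and 4484 CPM in control pools. The log2 fold change of -2.99 ± 0.47 (adjusted p 0.000599 in edgeR) was -2.29 without control pool 6, whose level was 2.92-fold the mean of the other control pools. Rps14, whose human counterpart lies in the region lost in the 5q- syndrome of the marrow, was also highest in control pool 6. It had 696, 901 and 1034 CPM in ruxolitinib pools, against 3601, 4806 and 10782 CPM in control pools, with a log2 fold change of -2.87 ± 0.44, and -2.27 without pool 6. For Rps18 and Rps13 the estimate moved less without that pool. Rps18, a protein of the head of the small subunit, had 329, 652 and 848 CPM in ruxolitinib pools, against 3700, 4430 and 4519 CPM in control pools. Its log2 fold change was -2.79 ± 0.37, and -2.75 without pool 6. Rps13 had 363, 464 and 628 CPM in ruxolitinib pools, against 2476, 3064 and 4182 CPM in control pools, a log2 fold change of -2.74 ± 0.33, and -2.52 without pool 6. Without pool 6 these genes and Rpsa (-2.40) came before Rps21 in order of fall. In Rps18 and Rps13 the groups lay far apart, and pool 1 was the lowest library.

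With all libraries Rpl17 and Rpl18 had the largest falls among 60S genes, apart from the pseudogene symbol Rpl27-ps3 (-2.92 ± 0.33, from means of 4.46 CPM in ruxolitinib pools and 33.9 CPM in control pools). Rpl17 had 187, 179 and 199 CPM in ruxolitinib pools, against 908, 894 and 2452 CPM in control pools, a log2 fold change of -2.91 ± 0.41, and -2.27 without pool 6. Pseudogenes held 59.1% of the counts of Rpl17 and its pseudogenes together. The most counted of them, Rpl17-ps3 and Rpl17-ps10, had log2 fold changes of -2.26 and -0.61. Rpl18 had 529, 854 and 927 CPM in ruxolitinib pools, against 3795, 5028 and 6363 CPM in control pools, a log2 fold change of -2.72 ± 0.33, and -2.53 without pool 6. The groups of both genes were separate, and pool 6 was the highest control. Without pool 6 the order was another: Rpl21 (-2.66, against -2.22 with all libraries) came before Rpl18, and Rpl35a (-2.46), Rpl29 (-2.41), Rpl38 (-2.31) and Rpl37a (-2.29) came before Rpl17, with Rpl7a at -2.27 as Rpl17.

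Apart from Rps10, described further on, the smallest estimates were those of 60S genes, and several of these had a low value in control pool 6. Rpl4 (chromosome 9, 64173375 to 64178666, plus strand), a protein that lines the exit tunnel of the ribosome, had 1152, 1301 and 1537 CPM in ruxolitinib pools, against 2568, 2398 and 1434 CPM in control pools. Its log2 fold change of -0.68 ± 0.29 did not pass the test (adjusted p 0.0706 in edgeR), and control pool 6 lay inside the range of the ruxolitinib pools. Without pool 6 it was -0.91 (adjusted p 0.0101). Rpl23, which in humans can bind the p53 regulator MDM2, had 367, 536 and 519 CPM in ruxolitinib pools, against 986, 981 and 352 CPM in control pools. Its log2 fold change was -0.71 ± 0.38 (adjusted p 0.140), and -1.06 without pool 6. Rpl23a (chromosome 11, 78180932 to 78183584, minus strand), which lies near the tunnel exit, had 246, 325 and 372 CPM in ruxolitinib pools, against 832, 823 and 89.4 CPM in control pools. The value of pool 6 was below every ruxolitinib pool, and the log2 fold change was -0.89 ± 0.63 with it and -1.41 without it. Rpl28 had 479, 729 and 636 CPM in ruxolitinib pools, against 1740, 1903 and 434 CPM in control pools, so pool 6 was again the lowest of all 6 libraries. Its log2 fold change was -1.14 ± 0.47, and -1.58 without pool 6. Rpl6 had 750, 888 and 998 CPM in ruxolitinib pools, against 2040, 2188 and 917 CPM in control pools. It was called lower (-0.96 ± 0.34, adjusted p 0.0357), but not when either ruxolitinib pool 1 or 2, or control pool 4 or 5, was left out (adjusted p 0.0959 to 0.138).

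To see which genes moved apart from the rest of the family, the libraries were scaled to the geometric mean of the 88 genes and the test was repeated. In this fit 12 genes of the family were called lower and 5 higher, against 1.13% lower and 80.5% higher among all genes tested, whose median log2 fold change was 1.88 on this scale. Lower than the rest were Rps21 (-1.19), Rpl27-ps3 (-1.14), Rpl17 (-1.07), Rps14 (-1.06), Rps18 (-1.02), Rps13 (-0.94) and 6 more, and 5 of the 12 code for 40S proteins. The 5 that were higher than the rest, Rpl4 (1.14), Rpl23 (1.11), Rpl7l1 (1.10), Rpl6 (0.87) and Rpl10 (0.83), all carry the Rpl symbol of the 60S list. Other settings of this fit also called genes of the 40S list higher. Rps25 was called higher with DESeq2, with limma-voom, with the sum of the family's counts as library size, and without ruxolitinib pool 3. Rps10 was called higher with that sum and without ruxolitinib pool 1. Rpl10, which joins the large subunit late in its assembly, had 632, 827 and 800 CPM in ruxolitinib pools, against 1473, 1531 and 1490 CPM in control pools. Its controls were close to one another, pool 6 included, and its log2 fold change under TMM was -0.99 ± 0.23. Without control pool 6 the relative fit called 6 genes lower and 5 higher, and 5 and 4 of these were among the calls with all libraries. Rps18, Rps13, Rpl18, Rpl27-ps3 and Rpl35a were the 5 shared lower ones, and Rpl4, Rpl23, Rpl7l1 and Rpl10 the 4 shared higher ones, named here after their values were seen. Without ruxolitinib pool 1 it called 5 lower, and without ruxolitinib pool 2 it called 6. With pseudogene counts added to the parent genes it called 9 lower, and Rpl17, Rpl14 and Rpl35a were not among them.

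Features of the genes were set beside their fold changes. Across 81 genes the log2 fold change had a Pearson r of -0.43 and a Spearman rho of -0.49 with the mean control level, 0.28 and 0.28 with mRNA length, and -0.24 and -0.24 with GC content. For the fold change without control pool 6 the values were -0.35 and -0.36 with the mean control level, which still included pool 6. They were 0.27 and 0.27 with mRNA length, and -0.34 and -0.35 with GC content. The order of the features thus differed between the fold changes with and without that library. These are descriptions across genes that share the same libraries, and the first shares the control values with the fold change itself. The 36 tested genes with a pyrimidine run near the start, as in the windows printed above, had a median change of -1.86 (log2), and the 27 without one -1.81. The 25 with CCGGAAG had a median change of -1.68, and the 38 without it -1.86. The 30 tested genes that hold snoRNA genes within their bounds, 58 in all, had a median of -1.93, and the 58 other tested genes -1.75. The genes lay on 20 chromosomes, with the most (14) on chromosome 7.

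Some ribosomal proteins have a second, closely related gene that is used in particular tissues or states. Rpl22 (chromosome 4, 152325742 to 152334071, plus strand) is needed in mice for the development of alpha-beta T cells, and its paralog Rpl22l1 can take its place in the ribosome. Rpl22 had 240, 330 and 348 CPM in ruxolitinib pools, against 912, 1010 and 979 CPM in control pools, a log2 fold change of -1.66 ± 0.24. Rpl22l1 had 45.8, 62.4 and 66.2 CPM in ruxolitinib pools, against 166, 210 and 143 CPM in control pools, a log2 fold change of -1.57 ± 0.23. The paralog stood at 19.1%, 18.9% and 19.0% of the level of Rpl22 in ruxolitinib pools, against 18.2%, 20.8% and 14.6% in control pools, so the groups overlapped (exact permutation p = 0.7, adjusted over 3 pairs 0.7).

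In 2 other paralog pairs the second gene stood higher relative to the first in every ruxolitinib pool than in any control pool. The exact permutation test could not pass here, as its smallest p for 3 pools against 3 is 0.1. Rps27l, which is induced by p53, had 60.7, 74.4 and 61.6 CPM in ruxolitinib pools, against 172, 178 and 228 CPM in control pools, a log2 fold change of -1.56 ± 0.21. Rps27 itself had 439, 469 and 595 CPM in ruxolitinib pools, against 1851, 2153 and 5103 CPM in control pools, a log2 fold change of -2.60 ± 0.41, and -2.01 without pool 6. Rps27l thus stood at 13.8%, 15.9% and 10.4% of Rps27 in ruxolitinib pools and 9.32%, 8.28% and 4.46% in control pools, and the groups did not overlap (exact permutation p = 0.1, adjusted 0.15). Rpl7l1 had 63.1, 72.7 and 68.5 CPM in ruxolitinib pools, against 117, 104 and 119 CPM in control pools, a log2 fold change of -0.74 ± 0.18. Rpl7 fell by 1.42 on the log2 scale, and Rpl7l1 stood at 6.76%, 7.29% and 6.13% of it in ruxolitinib pools, against 4.98%, 3.86% and 3.82% in control pools (p = 0.1 in an exact permutation test, adjusted 0.15). Reads of Rps27 and its retrogene copy Rps27rt (-1.85 ± 0.32) may be split between them in counting, which makes both values uncertain. Rpl39l (-2.25 ± 0.61, at 3.42 CPM or less) and Rpl39 (-2.28 ± 0.35) differed little in their estimates. So did Rpl36al (-1.54 ± 0.61), at 1.99 CPM or less, and Rpl36a (-1.59 ± 0.34), and Rpl36al did not pass the test (adjusted p 0.0540). Of the muscle and testis paralogs, Rpl3l had 4, 2 and 1 counts in ruxolitinib pools and 1, 0 and 0 in control pools, and Rpl10l had 0 in every library, while Rpl3, the partner of Rpl3l, fell by 1.42 on the log2 scale.

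Of the 18 genes whose human counterparts are mutated in Diamond-Blackfan anaemia, 17 were called lower and 0 higher under TMM (median -1.69), and 0 either way when scaled to CD8 T markers (median 0.30 on the log2 scale). The whole family, with 82 of 88 called lower under TMM and a median of -1.83, was near these values. Of all genes tested, 25.3% were called lower and 29.9% higher under TMM, and 0.482% and 70.4% with the marker scaling. Rps19, the gene most often mutated in that disease, had 395, 645 and 600 CPM in ruxolitinib pools, against 1836, 2042 and 2864 CPM in control pools, a log2 fold change of -2.04 ± 0.30. Rps26 had 658, 843 and 845 CPM in ruxolitinib pools, against 2946, 3407 and 2919 CPM in control pools, a log2 fold change of -1.98 ± 0.25. The groups of both genes were separate. Rpl5 and Rpl11, which with the 5S RNA form a particle that can bind MDM2, had smaller falls. Rpl5 had 619, 763 and 855 CPM in ruxolitinib pools, against 1914, 1952 and 1676 CPM in control pools, a log2 fold change of -1.31 ± 0.24. Rpl11 had 427, 693 and 696 CPM in ruxolitinib pools, against 1912, 2064 and 1049 CPM in control pools, a log2 fold change of -1.47 ± 0.33. Here too pool 6 was the lowest control.

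Rps10 was the exception on that list, and it was listed at very low levels. The table gave it 0.877, 1.67 and 2.08 CPM in ruxolitinib pools, against 2.27, 2.48 and 2.86 CPM in control pools, while the family's median level in the control pools was 1708 to 1963 CPM. The pseudogene Rps10-ps2 was listed at 174, 242 and 288 CPM in ruxolitinib pools, against 798, 973 and 584 CPM in control pools, and pseudogenes held 99.7% of the counts of gene and pseudogenes together. The log2 fold change was -0.71 ± 0.44 for Rps10 as listed (adjusted p 0.198), and -1.83 with pseudogene counts added to it (adjusted p 0.000596 in edgeR). Rpl17 was the other gene whose pseudogenes held more counts than itself, with 59.1%. The sources used here do not say how reads that match several places were counted.

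Annotated pseudogenes of ribosomal protein genes, spliced copies in other places of the genome, were lower as well under TMM scaling, but not when scaled to CD8 T markers (3 called lower, 7 higher, median -0.03). Of 390 such entries in the table, 183 had a count, 111 were tested, 90 were called lower and 2 higher (median -1.87) with TMM scaling. Of all genes tested, 25.3% were called lower and 29.9% higher with TMM scaling, and 0.482% and 70.4% with the marker scaling. The pseudogenes held 0.209%, 0.267% and 0.317% of counts in ruxolitinib pools, against 0.708%, 0.773% and 0.828% in control pools (exact permutation p = 0.1). As a share of genes and pseudogenes together they made up 5.17%, 4.91% and 4.59% in ruxolitinib pools and 3.88%, 3.80% and 3.75% in control pools. Adding them to their parent genes gave 83 of 88 genes called lower and a median of -1.83.

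Proteins that the name rule leaves out but that belong to the ribosome or share the TOP tract moved in part. Fau, whose product holds the 40S protein eS30 fused to a ubiquitin-like domain, had 657, 996 and 1030 CPM in ruxolitinib pools, against 3313, 4093 and 6358 CPM in control pools, a log2 fold change of -2.36 ± 0.34. Rack1, a scaffold on the 40S head, had 1115, 1260 and 1472 CPM in ruxolitinib pools, against 3504, 3904 and 3663 CPM in control pools, a log2 fold change of -1.53 ± 0.25. Rps27a, a ubiquitin fusion that the name rule includes, had 153, 249 and 617 CPM in ruxolitinib pools, against 759, 1208 and 1059 CPM in control pools, a log2 fold change of -1.57 ± 0.46 that did not pass the test without ruxolitinib pool 1 or 2 (adjusted p 0.0666 and 0.0728).

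Of the 17 TOP mRNAs on a list of translation factors and other non-ribosomal or fused proteins, 9 were called lower and 0 higher (median -0.87), 13 lower and 1 higher (Pabpc1, 0.71) without control pool 6, and 0 lower and 7 higher when scaled to CD8 T markers. Of all genes tested, 25.3% were called lower and 29.9% higher with TMM scaling, 27.4% and 32.1% without control pool 6, and 0.482% and 70.4% with the marker scaling, so the share of these TOP mRNAs called higher in the last was below that of all genes. The elongation factor subunits Eef1b2 (-1.74 ± 0.26) and Eef1g (-1.63 ± 0.25) and the histone chaperone Nap1l1 (-1.80 ± 0.24) were among those called lower. Their median was closer to that of all genes than the ribosomal protein median of -1.83, a difference between lists that was not tested.

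Factors that build ribosomes were lower for the most part. Of 95 ribosome biogenesis genes, 58 were called lower and 2 higher (median -0.82), and 73 and 2 without control pool 6, but 0 lower and 39 higher when scaled to CD8 T markers. The shares of all genes called were 25.3% lower and 29.9% higher with TMM scaling, and 70.4% higher with the marker scaling, above the share of the biogenesis genes. Nhp2, a protein of the H/ACA particles that guide pseudouridylation, had 33.2, 54.1 and 50.4 CPM in ruxolitinib pools, against 237, 272 and 231 CPM in control pools, a log2 fold change of -2.43 ± 0.24. The methyltransferase fibrillarin, Fbl, fell by 1.84 on the log2 scale, and the processing factors Rrp9, Rrp15 and Mrto4 by 2.15, 2.40 and 1.86. The 2 genes called higher were Riok3 (1.88 ± 0.26) and Tsr1 (2.31 ± 0.48), both linked to maturation of the 40S subunit and named after their values were seen. Riok3 had 307, 293 and 167 CPM in ruxolitinib pools, against 68.6, 72.1 and 67.4 CPM in control pools. Of 10 chaperones of ribosomal or nascent proteins, 9 were tested and 8 called lower, among them Grwd1 (-1.70), Btf3 (-1.91) and Naca (-1.65), and 0 lower and 1 higher when scaled to CD8 T markers.

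**Figure D5:**
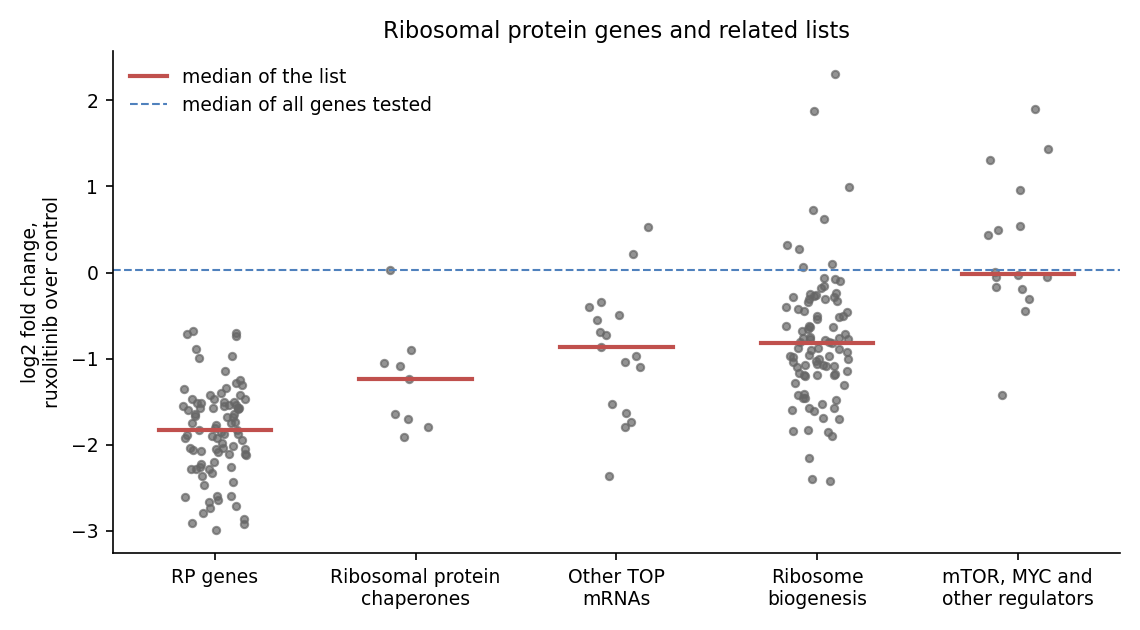
log2 fold change (ruxolitinib over control, TMM scaling) of the tested genes of 5 lists, one point per gene, with the median of each list (solid bar) and of all genes tested (dashed line, 0.03). The ribosomal protein genes have a median of -1.83 (0.06 when scaled to CD8 T markers), their chaperones -1.24 (0.68), the other TOP mRNAs -0.87 (1.05), ribosome biogenesis genes -0.82 (1.10) and the regulators -0.01 (1.96).

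Of 16 genes for regulators of this family (the mTOR pathway, the LARP proteins and transcription factors), 4 were called higher, 1 lower and 11 neither with TMM scaling, and 15 higher and 0 lower when scaled to CD8 T markers. With TMM scaling 29.9% of all genes tested were called higher, near the regulators' share, and 25.3% lower, and with the marker scaling 70.4% were called higher. The genes that follow are thus given singly, and not as a change of the list. Myc, which drives transcription of ribosomal protein and biogenesis genes, had 20.4, 24.1 and 23.4 CPM in ruxolitinib pools, against 74.8, 60.8 and 46.8 CPM in control pools, a log2 fold change of -1.43 ± 0.23. The groups did not overlap. Higher were Tsc1 (1.90 ± 0.42) and Tsc2 (1.31 ± 0.21), which form a complex that restrains mTOR, the translation repressor Eif4ebp1 (1.44 ± 0.26), and Rptor (0.96 ± 0.21), a subunit of mTOR complex 1. Tsc2 had 58.0, 43.0 and 47.3 CPM in ruxolitinib pools, against 22.0, 20.2 and 17.9 CPM in control pools. Mtor (0.43 ± 0.22, adjusted p 0.116) and the S6 kinase gene Rps6kb1 (-0.31 ± 0.19, adjusted p 0.199) did not pass the test. These are mRNA levels of pooled cells in which the marker lists above also moved, and the part of other cell types in them was not tested.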

How the data were processed

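RNA of marrow cells held by CD8 microbeads was sequenced in 6 libraries. The authors deposited 1 table of raw read counts per gene, as whole numbers without normalisation. Reads were aligned with HISAT2 2.0.5 to mm10, per the submitters' processing notes. Which program counted the reads, with which strand setting, annotation and handling of reads matching several genes, is not stated in the labels or notes. Sample labels gave the groups, and the titles named the columns.

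The quasi-likelihood test of edgeR 4.0.16 (R 4.3.3) was run over all genes after filterByExpr, with TMM factors, robust glmQLFit and group as the term. Genes with a Benjamini-Hochberg adjusted p under 0.05 were called. The SE is the log2 fold change divided by the square root of F. The relative fit replaced TMM by the geometric mean of the tested family members (offset 0.5 counts). Alternatives were other scalings and filters, DESeq2 1.42.0, limma-voom (limma 3.58.1), pseudogene counts added to parents and leaving out each pool. Scaling to CD8 T markers with pools left out, and removal of pseudogene symbols, were chosen after seeing the data. Shares were compared with exact permutation tests. Scripts were tested on simulated counts.

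mRNA lengths are those of the shortest principal transcript in GENCODE M21 (GRCm38), and promoter sequences come from RefSeq. The members and lists were chosen with earlier results of these data known. The rule for naming genes took the 6 most abundant per length, the 6 highest and 6 lowest fold changes, the 6 largest departures from the family, paralogs with partners, stalk genes, Rpsa, anaemia genes, up to 5 called genes of each list, all regulators, and Fau, Rps27a and Rack1; a gene the rule also took is not reported here. Depth was 13829808 to 17708196 counts, so values of a few CPM rest on few reads. The pools are separate biological samples.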

Additional observations from a re-analysis of the deposited data

How the results depend on the processing

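No paired analysis was possible because the ruxolitinib pools (1 to 3) and control pools (4 to 6) share no replicate number. Between 79 and 86 ribosomal protein genes were called lower when each pool was left out, with medians of -1.95 to -1.67, and 81 to 86 under the other filters, tools and scalings apart from the CD8 T markers, where it was 0. With that scaling 3 ribosomal protein genes, 39 biogenesis genes and 7 other TOP genes were called higher and 0 of each lower, against 70.4% of all genes tested called higher, a larger share than in each of these lists. The cause was not tested. The ribosomal protein median there was 0.056. With ruxolitinib pools 1, 2 and 3 left out in turn as well it was 0.0051, -0.20 and 0.32, and with control pools 4, 5 and 6 left out -0.00042, 0.10 and 0.21, with 0 to 20 genes called higher and 0 to 1 lower. The difference in share lay between -15.2 and -13.2 percentage points in every setting run. limma-voom with quality weights called 15 other TOP genes lower and 1 higher. With each pool left out, 46 to 73 biogenesis genes were called lower and 2 to 4 higher, and 0 to 1 other TOP genes higher. The relative fit called 7 lower with the sum of the family's counts as library size, 8 higher with limma-voom, and 5 to 12 lower with each pool left out.

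Estimates that turned positive with the CD8 T marker scaling, as log2 fold changes, were Rpl23 1.28, Rpl4 1.27, Rpl7l1 1.21, Rpl23a 1.12, Rps10 1.05, Rpl6 1.01, Rpl10 0.93, Rpl28 0.88, Rpl5 0.60, Rpl7 0.48, Rpl11 0.47, Rpl3 0.46, Rps27l 0.39, Rpl36a 0.36, Rpl22l1 0.34, Rpl36al 0.30, Rpl22 0.23, Rps27rt 0.13 and Rps27a 0.035. Outside the family they were Rps6kb1 1.64, Myc 0.55, Rack1 0.38, Naca 0.27, Eef1g 0.27, Grwd1 0.20, Eef1b2 0.16, Fbl 0.11, Nap1l1 0.094 and Mrto4 0.060. Depth limits Rpl36al, Rpl39l and Rpl3l, which were counted at a few CPM or less. Rps10 was listed at a few CPM as well, but pseudogenes held 99.7% of the counts of gene and pseudogenes together.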
